A study of Homo sapiens with 16 samples.

Results

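The collagen genes of the GRC1 cell line were followed over the 4 sequenced phases. Members were all rows of the deposited table whose symbol read COL, a number, A and a number, and this rule found 44 of 39007 rows. They fell into 11 fibrillar collagens, 6 basement membrane collagens and 27 other collagens, the last being 5 beaded filament, 1 anchoring fibril, 3 short-chain network, 10 fibril-associated, 4 transmembrane, 2 multiplexin and 2 unclassed genes. The GRC1 cell line came from T24, an established human bladder cancer line, by repeated exposure to gemcitabine, a nucleoside drug that stops DNA synthesis, and a phase ended when the treated cells had grown back. Poly(A) RNA was sequenced from 16 libraries, 4 of each phase, parental phase P0 being T24 cells never selected with the drug. The GRC1 cell line was sampled at P3 (early phase), P7 (intermediate phase) and P15 (late phase). All were grown in the same serum-containing medium. Every library label carries the tag NT, which the paper does not explain. The labels end in an S and a number, and some of these numbers recur in different phases. Whether the phases also differ by sequencing run was not tested. GRC1 is a single selected line among several derived in parallel, and the labels do not say that the replicates were separate cultures, so that p-values measure the spread between these libraries only.

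Collagens are secreted or membrane proteins whose chains wind around each other into a triple helix. Fibrillar collagens form the banded fibers of connective tissue, with type I and III as the bulk of most fibers and type V as a regulator of fiber assembly. Type IV chains build the sheet of the basement membrane under an epithelium such as the bladder lining, type VII anchors that sheet to the tissue below, and type VI forms beaded filaments near it. Chains of one type often come from different genes and are assembled before secretion, so that the balance between partner genes matters for which trimers can form.

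Values are log2 of CPM plus 1, as deposited, where CPM is the count of a gene scaled to the total of its library. The libraries were estimated from the spacing of their lowest values to hold 33.8 to 50.0 M counts. Of the low values at 1 to 10 such counts, 70.9% (P15 replicate 3) to 73.0% (P0 replicate 3) were even. These counts may thus not all be independent, which was not tested. Pearson's r across genes within a phase was at least 0.9965. A gene was tested when its mean over the 16 libraries exceeded 1 CPM, which held for 13249 genes and for 22 of the 44 collagens. Below, a gene is called when limma's Benjamini-Hochberg adjusted p, taken over all tested genes, is under 0.05 and the log2 difference is at least 1, and a gene passed the test when the adjusted p alone is under 0.05. Of the 22 tested collagens, 18 had a mean above 1 CPM in every phase. COL3A1, COL5A1 and COL22A1 exceeded it at P15 only and passed the filter through that phase, so their difference from the other phases follows in part from the filter, while COL6A3 exceeded it in a pair of phases.

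The collagens as a whole took fewer reads in late phase P15 than in any earlier phase. Their summed level was 4547 ± 168 CPM at P0 (SD, n = 4), 5108 ± 118 at P3, 6735 ± 199 at P7 and 1661 ± 41.9 at P15. Every P15 library lay below every library of the other phases, and every P7 library lay above all others. The basement membrane collagens summed to 1204 ± 22.3 CPM at P0, 1377 ± 21.4 at P3, 2156 ± 42.3 at P7 and 657 ± 17.4 at P15. For the fibrillar collagens the sums were 612 ± 12.6, 725 ± 13.5, 782 ± 13.8 and 211 ± 3.08 CPM in the same order, and for the other collagens 2730 ± 151, 3007 ± 104, 3796 ± 167 and 792 ± 27.8 CPM. Thus all 3 class sums were highest at P7 and lowest at P15. Most of the fibrillar sum was COL5A2, with 550 CPM at P0, 736 CPM at P7 and 109 CPM at P15. By contrast, COL1A1, COL3A1, COL5A1 and COL11A2 were highest at P15. As a share of collagen CPM, the basement membrane class went from 26.5% at P0 to 39.6% at P15, the other class from 60.0% to 47.7%, and the fibrillar class from 13.5% to 12.7%.

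**Figure D1:**
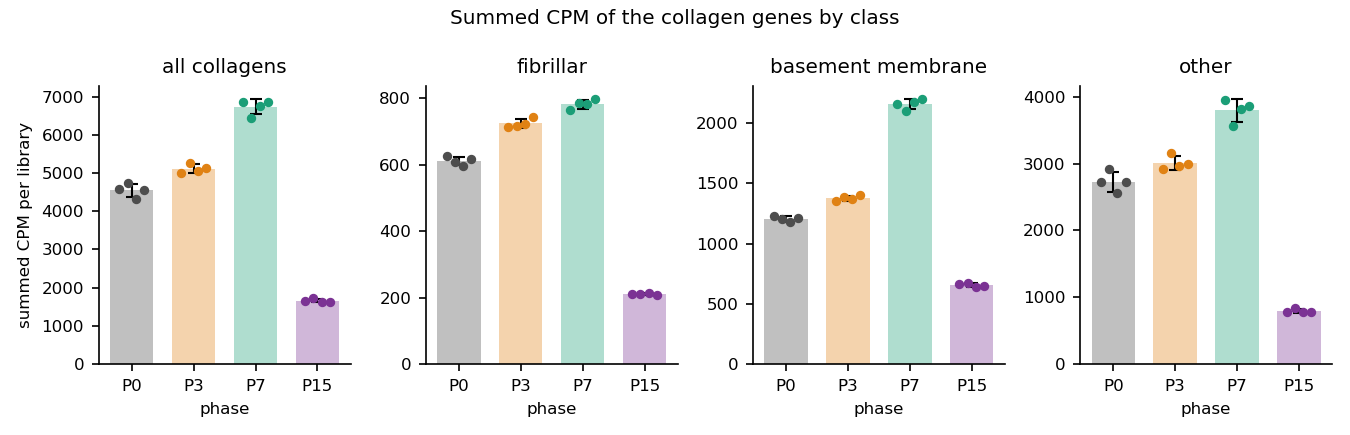
Summed CPM of all collagens and of the fibrillar, basement membrane and other collagens in each library (points), with the phase mean (bars) and SD (error bars, n = 4); each panel has its own axis from 0. Each sum is highest in the P7 libraries and lowest in the P15 libraries, where all collagens together sum to 1661 CPM on average.

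A few genes carried most of this sum of CPM. At P0, COL6A2 (887 CPM), COL4A2 (772 CPM), COL6A1 (676 CPM), COL5A2 (550 CPM) and COL7A1 (528 CPM) together made up 75.1% of collagen CPM. At P15, COL4A2 came first at 390 CPM, followed by COL6A2 at 281 CPM, COL6A1 at 230 CPM and COL4A1 at 215 CPM, and COL5A2 and COL7A1 had gone to 109 CPM and 55.7 CPM. Among the 22 tested collagens, 9 had their highest phase mean at P7 and 13 their lowest at P15, whereas 5 had their highest at P15. Per kilobase of exon, the order at P0 was COL6A2 (166 CPM), COL6A1 (122 CPM), COL5A2 (75.1 CPM), COL7A1 (47.4 CPM) and COL4A2 (40.1 CPM), and at P15 it was COL6A2 (52.7 CPM), COL6A1 (41.6 CPM), COL4A2 (20.2 CPM), COL18A1 (16.6 CPM) and COL5A2 (14.9 CPM). Lengths here and below are unions of the exons of all annotated transcripts, 19.3 kb for COL4A2 and 7.32 kb for COL5A2. They can exceed the length of the transcript in use, so these orders and the ratios below need not be those of transcript numbers. The single gene listed at 0 in all 16 libraries was COL6A5, a type VI chain.

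**Figure D2:**
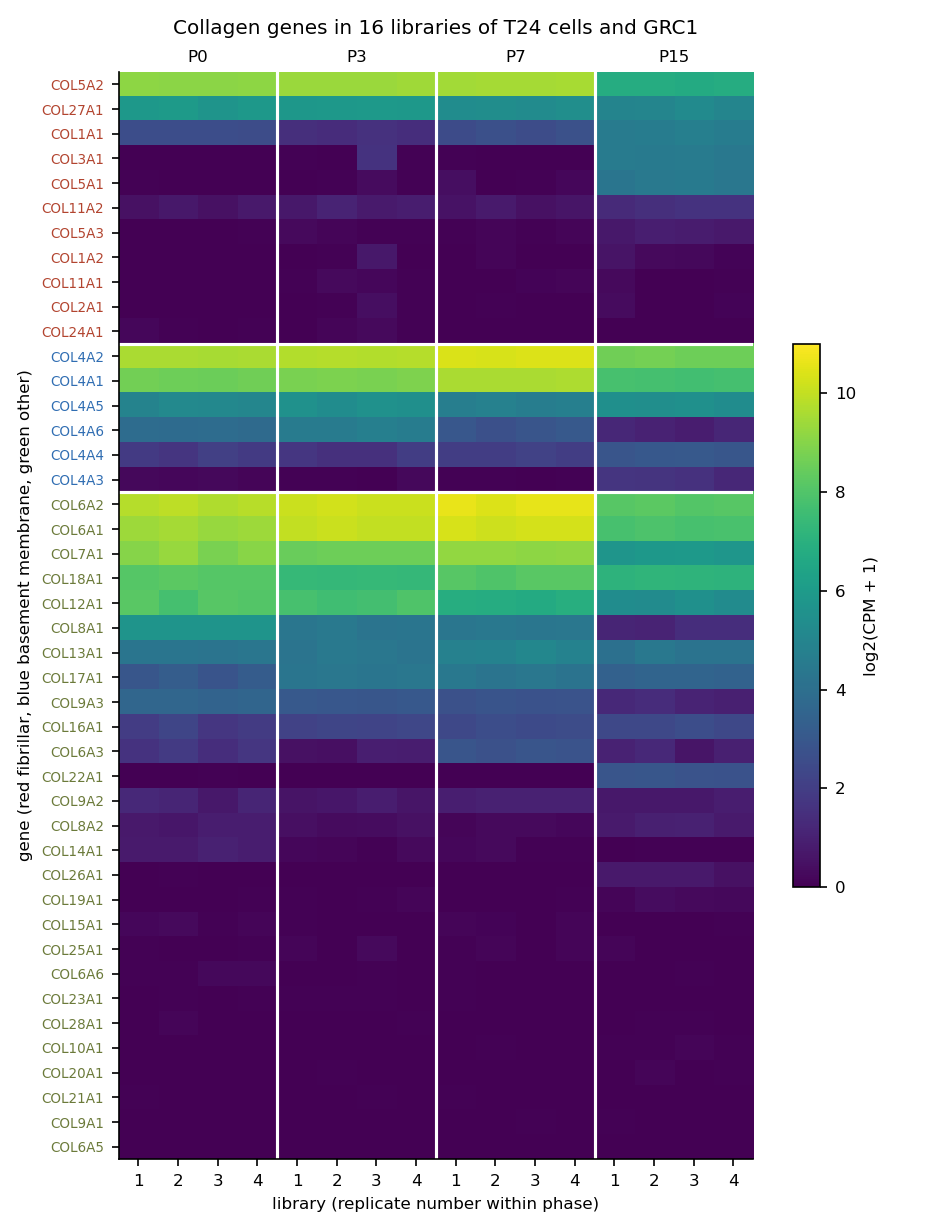
Deposited log2(CPM + 1) of all 44 collagen genes (rows, grouped as fibrillar, basement membrane and other) in the 16 libraries (columns, replicates 1 to 4 of each phase). The bright rows of type IV, VI and VII genes darken at P15, where COL3A1, COL5A1 and COL22A1, near 0 in the other phases except for COL3A1 in 1 P3 library, stand between 2.76 and 4.57.

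In early phase P3 compared with P0, the question was which collagens had moved after the first exposures. COL17A1 was the 1 collagen of 22 called higher, against a background of 1.95% of all tested genes called higher, and COL1A1 and COL8A1 were the 2 called lower, against 2.51%. With no fold threshold, 9 collagens were higher and 7 lower (background 31.4% and 37.3%). The median log2 difference was 0.07 over the collagens and -0.03 over all tested genes. In intermediate phase P7 compared with P3, 2 collagens were called higher, COL1A1 and COL6A3 (background 0.996%), and 1 lower, COL4A6 (0.845%). At this step 11 collagens passed as higher and 5 as lower (30.3% and 28.0%), and their median difference was 0.19, against 0.01 over all tested genes.

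The step from P7 to late phase P15 held most of the calls. Of the 22 tested collagens, 11 (50.0%) were called lower, against a background of 12.1%, and 4 (18.2%) were called higher, against 13.4%. The median log2 difference was -1.22 over the collagens and 0.06 over all tested genes. With no fold threshold, 15 passed as lower and 6 as higher (40.1% and 46.3%). Between P15 and P0, 8 collagens were called lower (background 11.5%) and 5 higher (12.2%), with a median of -0.81 against 0.04, and 13 passed as lower and 8 as higher (40.9% and 45.3%). Over only the 18 collagens above 1 CPM in every phase, 10 were called lower and 1 higher at P15 against P7, and 8 lower and 2 higher at P15 against P0, with medians of -1.54 and -0.99. These 2 comparisons share the P15 libraries. The subset was chosen after seeing the data, and the share called among all genes above 1 CPM in every phase was not computed. Its counts, also those by class below, therefore have no matching background.

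By class, the calls at P15 were split as follows. Of the 5 tested fibrillar genes, 3 were called higher and 1 lower than at P7, with a median log2 difference of 2.02. Of the 5 tested basement membrane genes, 3 were called lower and 0 higher (median -1.78), although 2 passed as higher below the fold threshold, and of the 12 other genes 7 were called lower and 1 higher (median -1.54). Against P0, the calls were 3 higher and 1 lower for the fibrillar genes (median 2.05), 1 and 1 for the basement membrane genes (median -0.83) and 1 and 6 for the other genes (median -1.27). The sign of the fibrillar median rests on COL3A1 and COL5A1, which passed the filter through P15 only. Over the 3 fibrillar genes above 1 CPM in every phase, COL1A1, COL5A2 and COL27A1, the median was -0.32 against P7 and -0.79 against P0, with 1 called higher and 1 lower in both. For the 10 other genes above 1 CPM in every phase the medians were -1.54 and -1.60, with 6 called lower and 0 higher in both, and the basement membrane medians stay as given, since all 5 of its tested genes were above 1 CPM in every phase.

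**Figure D3:**
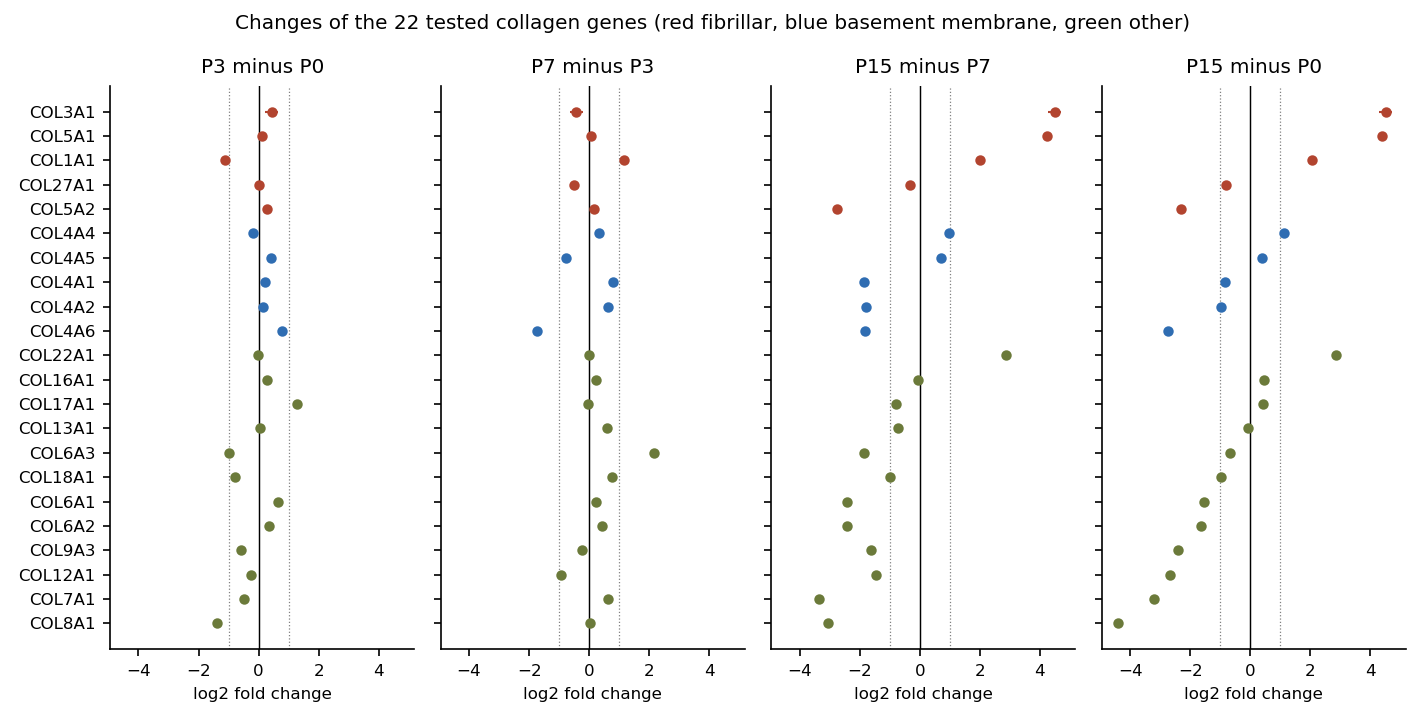
Log2 differences of the 22 tested collagen genes in the 4 comparisons (points, with SE from limma as bars, most of them smaller than the point; dotted lines at -1 and 1). In the panels of P15, COL1A1, COL3A1, COL5A1 and COL22A1 lie to the right of the dotted lines, as does COL4A4 against P0. Of the 12 genes of the other class, 7 lie to the left against P7 and 6 against P0. Against P0 the differences run from -4.41 for COL8A1 to 4.51 for COL3A1.

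Among the fibrillar genes, COL1A1 encodes the main chain of type I collagen and lies on the minus strand at chr17:50184101-50201632 (GRCh38). Its 4 libraries, given here and below as replicates 1 to 4, stood at 2.58, 2.62, 2.6 and 2.55 at P0, at 1.48, 1.38, 1.55 and 1.44 at P3, at 2.52, 2.67, 2.56 and 2.72 at P7, and at 4.57, 4.60, 4.76 and 4.63 at P15. The P3 libraries were the lowest and the P15 libraries the highest, while P0 and P7 overlapped. It fell at P3 by 1.13 (SE 0.07, adjusted p = 1.1e-12), rose at P7 by 1.16 (SE 0.07, adjusted p = 1.9e-12) and rose at P15 by 2.02 (SE 0.07, adjusted p = 1.5e-18). Its partner COL1A2, the second chain of the usual type I trimer, stood at 0 throughout P0 and reached at most 0.70 in any library, so it was not tested. At P15, COL1A2 stood at 0.59, 0.30, 0.22 and 0.12, and per kilobase of exon COL1A1 (2.66 CPM) was 116 times the level of COL1A2 (0.02 CPM).

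COL3A1, which encodes the single chain of type III collagen, was listed at 0 in the 4 P0 libraries and at 0.07, 0, 0 and 0 at P7. At P15 it stood at 4.57, 4.50, 4.57 and 4.40, above every library of the other phases. P3 was uneven, with 0.07, 0 and 0.08 in 3 libraries and 1.61 in replicate 3. The fitted log2 difference of P15 was 4.51 from P0 and 4.49 from P7 (SE 0.21 for both, adjusted p = 8.1e-16 and 7.9e-16), values that depend on the pseudocount because the gene was at or near 0 before. As COL3A1 passed the filter through P15 only, these differences also follow in part from the filter. For P3 against P0 the difference was 0.44 (SE 0.21, adjusted p = 0.072), and 0.05 without P3 replicate 3 (adjusted p = 0.64).

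COL5A1 and COL5A2, the partner chains of type V collagen, moved in opposite directions. COL5A1 stood at 0.07, 0, 0 and 0 at P0, at 0.04, 0.07, 0.31 and 0.08 at P3, at 0.40, 0, 0.08 and 0.21 at P7, and at 4.28, 4.44, 4.53 and 4.34 at P15. It was thus near 0 in 3 phases and clear of them in the last, with a fitted rise of 4.23 from P7 (SE 0.10, adjusted p = 4.3e-22), a value set largely by the pseudocount (2.29 with a pseudocount of 5 and 6.64 with 0.1). COL5A2, one of the most abundant collagens in the early libraries, stood at 9.14, 9.08, 9.08 and 9.12 at P0, at 9.36, 9.36, 9.36 and 9.42 at P3, at 9.49, 9.53, 9.53 and 9.55 at P7, and at 6.83, 6.80, 6.71 and 6.80 at P15. It fell by 2.74 from P7 (SE 0.03, adjusted p = 7.9e-29) and by 2.32 from P0 (SE 0.03, adjusted p = 2.3e-27), with no overlap between P15 and any other phase. The log2 difference COL5A1 minus COL5A2 went from -9.35 ± 0.19 (SD, n = 4) at P7 to -2.39 ± 0.16 at P15, a shift of 6.97 (exact permutation test over libraries, two-sided, p = 0.0286, the smallest that 4 against 4 libraries allow; 0.0352 after adjustment over 16 such tests of 4 pairs in 4 comparisons). The size of this shift depends on the pseudocount as that of COL5A1 does. As COL5A1 passed the filter through P15 only, this shift also follows in part from the filter, and its p-value is not independent support. For P3 against P0 the shift of -0.16 had p = 0.143 (exact permutation test, adjusted 0.163). Even at P15 the level of COL5A1 per kilobase of exon was 0.121 times that of COL5A2.

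COL3A1 and COL5A2 are also neighbors, lying tail to tail on chromosome 2 with 19.2 kb between them, COL3A1 at chr2:188974373-189012746 on the plus strand and COL5A2 at chr2:189031898-189225312 on the minus strand. One rose and the other fell at P15. The fifth tested fibrillar gene, COL27A1, whose product is found in cartilage, had phase means of 5.85, 5.88, 5.38 and 5.06 and fell at P7 by 0.50 and at P15 by a further 0.32, both under the fold threshold. None of the 6 untested fibrillar genes exceeded 2.10 CPM in any library, the highest being COL11A2, with phase means of 0.62, 0.87, 0.62 and 1.52. COL5A3 had means of 0.02, 0.14, 0.11 and 0.81, and COL2A1, COL11A1 and COL24A1 stayed at or below 0.39 in every library.

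**Figure D4:**
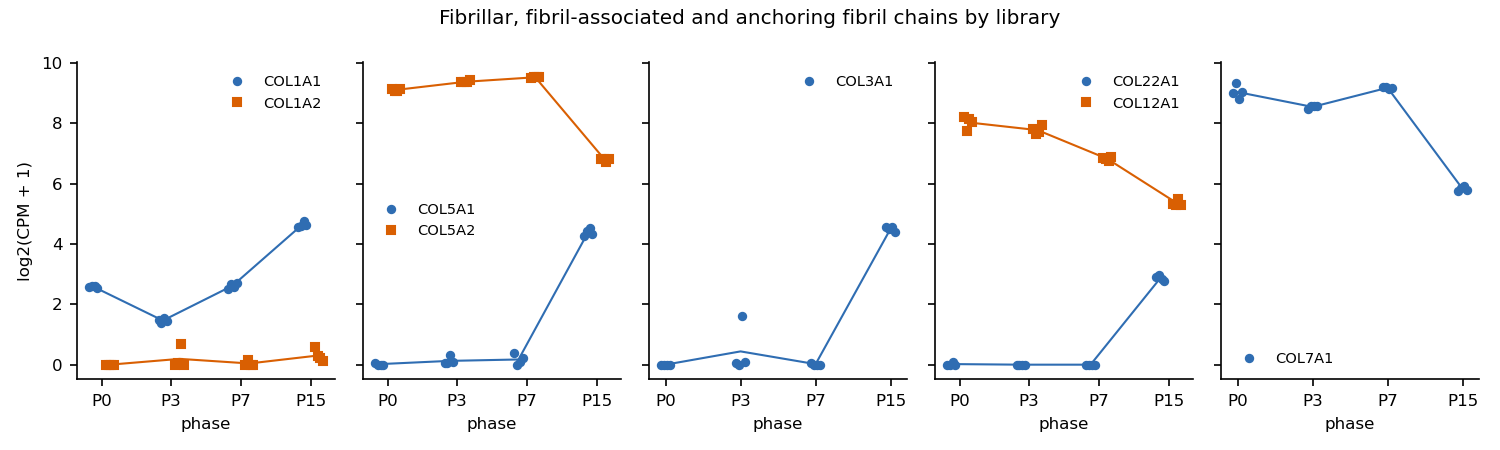
Deposited log2(CPM + 1) by library (points; lines join phase means) of the type I and type V partner chains, COL3A1, the fibril-associated COL22A1 and COL12A1, and COL7A1. COL5A1 goes from near 0 to between 4.28 and 4.53 at P15 while its partner COL5A2 goes from between 9.49 and 9.55 at P7 to between 6.71 and 6.83.

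P3 replicate 3 stood apart from the other P3 libraries in several genes of connective tissue cells. Besides COL3A1 (1.61, or 2.05 CPM), it held COL1A2 at 0.70, COL2A1 at 0.39 and COL5A1 at 0.31, each above the other P3 libraries. The same library held LUM at 0.57 and DCN at 0.20, both proteoglycan genes of fibroblasts, which were listed at 0 in the other 3 P3 libraries. THY1 (0.39), PDGFRA (0.57) and PDGFRB (0.52) were above the other P3 libraries as well, where they reached 0.20, 0.40 and 0.40. In the other direction, FAP was listed at 0 in replicate 3 against up to 0.14 in the others. COL5A3 was lowest there among the P3 libraries, at 0.07. What part these differences of the library have in its COL3A1 value was not tested. In the P15 libraries, where COL3A1 was at least 4.40, the fibroblast markers DCN and FAP were listed at 0, LUM was at most 0.26, THY1 at most 0.07 and PDGFRA at most 0.32, while PDGFRB went from a mean of 0.67 at P7 to 1.75 at P15.

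The type IV genes lie as 3 head-to-head pairs, each pair transcribed away from a short shared stretch. In GENCODE version 44, COL4A2 starts at 110305812, before the end of COL4A1 at 110307157, so these genes overlap and their stretch lies inside COL4A2. An exon-free part of each stretch is shown because the pairs behaved differently, with promoter motifs found by letter search on either strand in capitals. The CCAAT box reads ATTGG on the opposite strand, and the GC box, searched as GGGCGG, reads CCGCCC there. All are plus-strand sequences of GRCh38.p14 from the RefSeq promoter table, and none of their bases lies in an exon of GENCODE version 44. They are chr13:110307158-110307257 (100 of the 126 bases between the COL4A1 and COL4A2 starts), chr2:227164454-227164623 (170 of the 418 bases between the COL4A4 and COL4A3 starts) and chrX:108439588-108439837 (250 of the 379 bases between the COL4A6 and COL4A5 starts, of which 340 lie outside both genes in GENCODE).
COL4A1 and COL4A2: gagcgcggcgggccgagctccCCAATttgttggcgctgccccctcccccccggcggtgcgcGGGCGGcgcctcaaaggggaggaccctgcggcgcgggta
COL4A4 and COL4A3: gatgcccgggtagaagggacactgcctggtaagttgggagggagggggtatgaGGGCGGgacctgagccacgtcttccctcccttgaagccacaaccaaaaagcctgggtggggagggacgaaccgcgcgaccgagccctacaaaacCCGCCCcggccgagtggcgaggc
COL4A6 and COL4A5: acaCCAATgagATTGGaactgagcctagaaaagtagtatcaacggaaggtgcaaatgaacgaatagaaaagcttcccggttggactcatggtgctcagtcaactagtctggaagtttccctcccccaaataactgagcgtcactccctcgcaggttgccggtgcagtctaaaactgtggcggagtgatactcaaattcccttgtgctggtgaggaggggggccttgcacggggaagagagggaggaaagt

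The GC content of these stretches was 78.0%, 65.9% and 51.2% in this order. In the 250 bases before the start, 44 windows of 32 collagen genes were in the table. Some genes, such as COL11A2, COL10A1 and COL21A1, had several windows. Others, such as COL1A1, COL3A1, COL5A2, COL6A1, COL8A1 and COL22A1, had none, so the shares cover the family only in part. GGGCGG on either strand was in 54.5% of them and in 42.6% of all 35116 windows, CCAAT in 27.3% and 32.0%, and TATAAA in 18.2% and 10.7%. A match is a description of letters and not a bound site.

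COL4A1 and COL4A2, the chains of the basement membrane network found in nearly all tissues, kept close to each other in every phase. COL4A1 had phase means of 8.59 at P0, 8.82 at P3, 9.61 at P7 and 7.76 at P15, and COL4A2 had 9.60, 9.75, 10.39 and 8.61. For both genes the P7 libraries were the highest and the P15 libraries the lowest, with no overlap between any pair of phases. Both passed the test as higher at P3 (0.23 and 0.15) and at P7 (0.80 and 0.64), and both fell at P15 from P7, by 1.86 and 1.78 (SE 0.03 for both, adjusted p = 2.5e-25 and 6.8e-25). Against P0 they were lower by less than the fold threshold, at -0.83 and -0.99. The difference COL4A2 minus COL4A1 stayed between 0.73 and 1.04 in the 16 libraries, but its phase means of 1.01, 0.93, 0.78 and 0.86 did differ (exact permutation tests of the 4 comparisons, each p = 0.0286, adjusted 0.0352). Per kilobase of exon, COL4A2 was 1.53 times COL4A1 at P0 and 1.30 times at P7.

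COL4A5 and COL4A6, the X-linked pair, came apart. COL4A6 stood at 3.87, 3.83, 3.87 and 3.81 at P0, at 4.59, 4.57, 4.74 and 4.63 at P3, at 2.97, 2.70, 2.92 and 3.06 at P7, and at 1.22, 1.07, 0.90 and 1.19 at P15. It was highest at P3 and lowest at P15, with no overlap between any pair of phases, and it fell by 1.72 from P3 to P7 (SE 0.08, adjusted p = 1.3e-14), by 1.82 from P7 to P15 (SE 0.08, adjusted p = 2.0e-16) and by 2.75 from P0 to P15 (SE 0.08, adjusted p = 5.2e-20). COL4A5 had phase means of 5.06, 5.49, 4.73 and 5.44, and it rose by 0.71 from P7 to P15. The difference COL4A5 minus COL4A6 was 1.22 ± 0.12 (SD, n = 4) at P0, 0.86 ± 0.08 at P3, 1.82 ± 0.22 at P7 and 4.35 ± 0.19 at P15. Its shift of 3.13 between P0 and P15 was larger than the spread between libraries (exact permutation test, p = 0.0286, adjusted 0.0352). Per kilobase of exon, COL4A5 was 1.90 times COL4A6 at P0 and 29.0 times at P15.

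COL4A4 and COL4A3, known from the filtration membrane of the kidney, were low throughout. COL4A4 had phase means of 1.88, 1.69, 2.03 and 2.99 and rose by 1.11 from P0 to P15 (SE 0.10, adjusted p = 3.1e-10). This call is lost with quantile normalization (0.99) and with a pseudocount of 5 (0.64). Its P15 libraries, between 2.89 and 3.09, lay above all others. COL4A3 had a mean under 1 CPM and was not tested. It was at most 0.24 in the libraries of P0, P3 and P7 and stood at 1.71, 1.64, 1.57 and 1.22 at P15. In COL4A3, 6.82% of the exon bases also belong to exons of MFF-DT on the opposite strand, and the strand setting of the counting is not given in the sources used here.

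**Figure D5:**
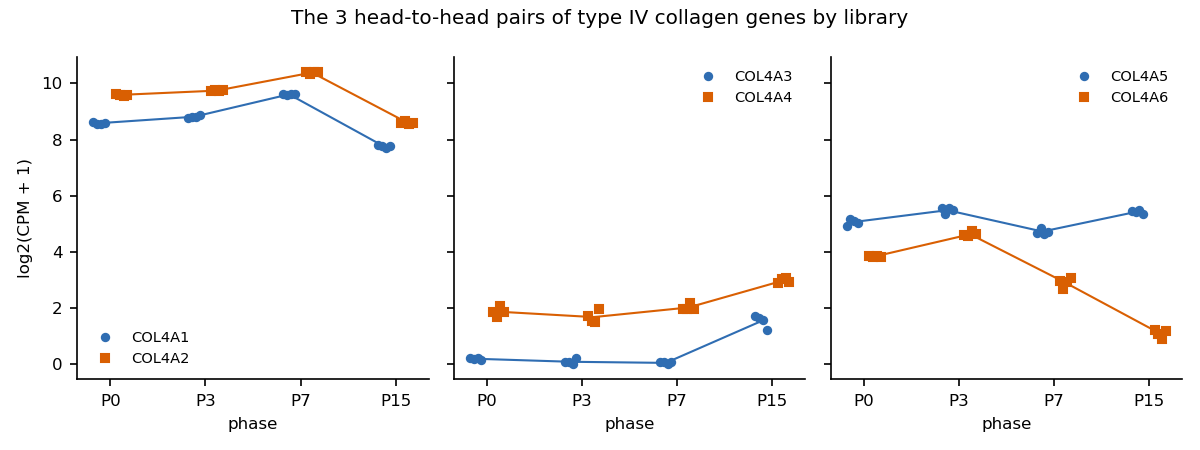
Deposited log2(CPM + 1) by library (points; lines join phase means) of the 3 head-to-head pairs of type IV collagen genes. COL4A1 and COL4A2 run side by side, with a difference between 0.73 and 1.04 in all 16 libraries, whereas COL4A6 goes to between 0.90 and 1.22 at P15 and COL4A5 stays between 4.65 and 5.56.

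Type VI collagen, the beaded filament type, is built from the products of COL6A1 and COL6A2 with a longer chain such as that of COL6A3. COL6A1 had phase means of 9.40, 10.04, 10.26 and 7.85, and COL6A2 had 9.79, 10.15, 10.56 and 8.14, both above all other collagens per kilobase of exon in each phase. They fell together at P15, by 2.41 and 2.43 from P7 (SE 0.04 and 0.05, adjusted p = 2.1e-24 and 7.7e-24) and by 1.55 and 1.66 from P0 (adjusted p = 1.6e-20 and 1.8e-20). The difference COL6A1 minus COL6A2 was -0.30 ± 0.02 at P7 and -0.29 ± 0.05 at P15 (exact permutation test of the shift of 0.02, p = 0.714), while it did shift by 0.28 from P0 to P3 (p = 0.0286, adjusted 0.0352). The genes lie in the same direction on chromosome 21 with 93.1 kb between them.

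COL6A3 was far lower and followed another course. Its libraries stood at 1.59, 1.89, 1.44 and 1.73 at P0, at 0.51, 0.43, 0.92 and 0.87 at P3, at 2.89, 2.74, 2.92 and 2.81 at P7, and at 1.06, 1.25, 0.64 and 0.98 at P15. The P7 libraries were above all others and P3 and P15 overlapped. It rose by 2.16 from P3 to P7 (SE 0.13, adjusted p = 1.1e-12) and fell by 1.86 from P7 to P15 (SE 0.13, adjusted p = 1.3e-12). Its decrease from P0 to P3 was 0.98, just under the fold threshold. Per kilobase of exon, COL6A1 was 774 times COL6A3 at P7, the phase where the ratio was lowest, and 6547 times at P3, where it was highest. The other possible partner chains, COL6A5 and COL6A6, were listed at 0 in all libraries and at most at 0.23.

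COL7A1, the anchoring fibril gene at chr3:48564073-48595329 on the minus strand, had the largest decrease of log2(CPM + 1) among all tested collagens from P7 to P15. This rank depends on the pseudocount. Mean CPM went from 578 to 55.7 for COL7A1, and from 19.3 to 1.45 for COL8A1, which is the larger fold. COL7A1 stood at 9.0, 9.32, 8.79 and 9.03 at P0, at 8.47, 8.58, 8.56 and 8.56 at P3, at 9.20, 9.21, 9.12 and 9.18 at P7, and at 5.74, 5.85, 5.92 and 5.78 at P15. The P3 libraries were below those of P0 and P7, and the P15 libraries far below all. It fell by 3.36 from P7 (SE 0.07, adjusted p = 1.2e-23) and by 3.21 from P0 (SE 0.07, adjusted p = 3.2e-23).

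COL8A1, a short-chain network collagen known from blood vessel walls and the cornea, fell in 2 steps. At P0 it stood at 5.69, 5.71, 5.69 and 5.70, then at 4.31, 4.43, 4.24 and 4.28 at P3 and 4.31, 4.39, 4.32 and 4.36 at P7, and at 1.16, 1.08, 1.45 and 1.45 at P15. P3 and P7 overlapped and the other phases did not. The decrease was 1.38 at P3 (SE 0.07, adjusted p = 3.7e-14), and 3.06 from P7 to P15 (SE 0.07, adjusted p = 5.9e-22), for a log2 difference of -4.41 between P15 and P0, the largest decrease in that comparison among the collagens. Its partner COL8A2, not tested, had means of 0.80, 0.41, 0.23 and 0.89, so that per kilobase COL8A1 was 33.8 times COL8A2 at P0 and 0.839 times at P15. COL10A1, the third gene of this group and a marker of growth plate cartilage, was at most 0.15.

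Fibril-associated collagens sit on the surface of fibers and differed in direction. COL22A1, known from tissue junctions such as that of muscle and tendon, was listed at 0 in all P3 and P7 libraries and at 0, 0, 0.08 and 0 at P0. At P15 it stood at 2.91, 2.96, 2.83 and 2.76, well above every earlier library. The fitted log2 difference from P7 was 2.87 (SE 0.08, adjusted p = 5.2e-20). This difference depends on the pseudocount and follows in part from the filter, which COL22A1 passed through P15 only. COL12A1, a large gene of dense connective tissue, went the other way, with means of 8.03, 7.77, 6.82 and 5.35, and it fell by 1.47 from P7 (adjusted p = 2.2e-15) and by 2.68 from P0 (adjusted p = 1.3e-20). COL9A3, a chain of cartilage collagen IX, had means of 3.59, 3.02, 2.78 and 1.18 and fell at P15, with log2 differences of -1.61 from P7 and -2.42 from P0 (adjusted p = 3.8e-15 and 1.1e-18). Of its exon bases, 3.20% overlap TCFL5 on the opposite strand. COL16A1 stayed between 1.75 and 2.61 in all libraries. Of the 6 untested genes of this group, COL9A2 and COL14A1 had means of 1.07 and 0.86 at P0 and 0.76 and 0.05 at P15, and COL9A1, COL19A1, COL20A1 and COL21A1 were at most 0.36.

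Among the transmembrane collagens, COL17A1, a hemidesmosome protein that ties epithelial cells to the basement membrane, was the only collagen called higher at P3. It stood at 2.93, 3.23, 2.87 and 3.19 at P0, at 4.28, 4.37, 4.27 and 4.37 at P3, at 4.39, 4.23, 4.34 and 4.19 at P7, and at 3.40, 3.54, 3.54 and 3.46 at P15. P3 and P7 overlapped above the others, and P15 lay between them and P0. The rise at P3 was 1.27 (SE 0.08, adjusted p = 3.7e-13), and the decrease of 0.80 from P7 to P15 passed the test under the fold threshold. COL13A1 had means of 4.28, 4.32, 4.93 and 4.22, with a rise of 0.61 at P7 and a decrease of 0.71 at P15. The other 2, COL23A1 and COL25A1, were at most 0.26.

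COL18A1, the multiplexin of basement membranes whose end fragment is endostatin, had means of 8.14, 7.36, 8.12 and 7.15. Each of its steps, -0.78, 0.77 and -0.98, passed the test under the fold threshold, and 18.5% of its exon bases overlap SLC19A1 on the opposite strand. COL15A1, its relative, was at most 0.29. The unclassed COL26A1 was at most 0.08 before P15, where it stood at 0.75, 0.77, 0.74 and 0.48, and COL28A1 was at most 0.15.

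Genes that modify, secrete, bind or degrade collagen were taken as a list of 49, of which 40 were tested. At P15 against P0, 8 were called higher and 8 lower (background 12.2% and 11.5%), with a median log2 difference of 0.24. From P0 to P3 the calls were 3 and 3 (1.95% and 2.51%), from P3 to P7 2 and 1 (0.996% and 0.845%), and from P7 to P15 8 and 9 (13.4% and 12.1%). P4HA3, COLGALT2, PCOLCE2 and MMP2 exceeded 1 CPM at P15 only and were tested through that phase. Over the 34 genes of the list above 1 CPM in every phase, 3 were called higher and 7 lower at P15 against P0, and 3 and 8 against P7. These counts have no matching background either. The enzymes inside the cell changed unevenly at P15. Of the 4 prolyl 4-hydroxylase genes, which stabilize the helix, P4HA3 was called higher (0.44 ± 0.08 at P0, 3.22 ± 0.29 at P15, SD, n = 4) and 0 lower. None of the 6 genes of the prolyl 3-hydroxylase complex was called, with P3H1 the farthest at 0.72. Among 5 lysyl hydroxylase and glycosyltransferase genes, COLGALT2 was called higher (difference 2.06) and PLOD2, which prepares lysines for cross-links, lower (-1.66). SERPINH1, the chaperone HSP47 that is dedicated to procollagen, was the 1 of 5 tested chaperone and secretion genes called lower, from 7.56 ± 0.06 at P0 to 5.07 ± 0.09 at P15 (adjusted p = 1.9e-24).

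Outside the cell the roles were mixed as well. Of 5 tested genes of propeptide cleavage, PCOLCE2 and PCOLCE, enhancers of C-propeptide removal, were called higher (3.40 and 1.19) and ADAMTS3, an N-propeptidase, and TLL2 lower (-2.67 and -2.19). LOX, the lysyl oxidase that cross-links fibers, had means of 5.06, 5.67, 7.01 and 1.32 and fell by 3.74 from P0 to P15 (adjusted p = 1.1e-21), as the 1 of 3 tested cross-linking genes that was called. Of 6 tested receptor genes, the integrin chain ITGA10 (4.78) and DDR1 (1.64) were higher and ITGA11 (-2.52) and ITGA2 (-1.18) lower. Of 6 tested genes of collagen cleavage and uptake, MMP1, the interstitial collagenase, had means of 2.88, 4.96, 3.03 and 7.47 and rose by 4.59 from P0 to P15 (adjusted p = 2.6e-22). MMP2 was also called higher (2.49, from a gene listed at 0 in the P0 libraries), and MMP14, a collagenase on the cell membrane, lower (-2.73).

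Markers of other cell types were read beside these values. The summed CPM of 11 urothelial markers ran from 2076 to 2154 in the P0 libraries, 2348 to 2485 at P3, 1667 to 1815 at P7 and 675 to 753 at P15, with 5 of the 11 above 1 CPM on average. KRT7 went from a mean of 9.90 at P0 to 3.64 at P15, KRT8 from 9.215 to 6.155 and KRT19 from 6.43 to 0.02. KRT18 went from 8.88 to 9.31. Of the other markers of the bladder lining, UPK1B, UPK3A, KRT20 and KRT5 were at most 0.10 in any library, UPK2 lay between 0.46 and 1.12 in all libraries, and UPK1A had means of 0.10, 0.34, 0.67 and 1.57. EPCAM had means of 2.68 at P0 and 0.86 at P15. From P3 to P7 the urothelial sum fell while the collagen sum rose. At P15 both fell, and the part of the urothelial sum in the result was not tested. Of 6 fibroblast markers 1 exceeded 1 CPM on average (PDGFRB, with means of 1.90, 0.33, 0.67 and 1.75), and their sum was 2.28 to 3.62 CPM at P0 and 2.35 to 2.70 at P15. The sum of 4 endothelial markers was 6.0 to 8.06 CPM at P0 and at most 1.09 later, and that of 4 leukocyte markers at most 0.20. Most of the endothelial sum at P0 was CDH5 (mean 5.69 CPM, and 0.22 at P3), with PECAM1 at 0.94 and 0.14. CLDN5 (0.08 and 0.05) and VWF (0.04 and 0.10, the other direction) were near 0 in both phases. The step of CDH5 coincided with the decrease of COL8A1 at P3, and its part in that decrease was not tested. In such bulk libraries, fewer cells of a type and less RNA per cell cannot be told apart.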

How the data were processed

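Reads of 16 libraries were aligned with STAR 2.6.1a to GRCh38, counted per gene and turned into CPM, per the paper's methods and the submitters' processing notes, and the values deposited by the authors are log2 of CPM plus 1 with 2 decimals. Strand setting and treatment of shared reads are not given in the sources used here. Phases were compared with limma 3.58.1 (R 4.3.3), with 1 coefficient per phase, a variance trend and Benjamini-Hochberg adjustment over 13249 genes with a mean above 1 CPM. The procedure was tested on simulated data. Depth was estimated from the spacing of low values, since total counts were not used here. Pairs of genes were compared by exact permutation tests over libraries. Positions and exon lengths, the latter as unions over all transcripts of a gene, are those of GENCODE 44. Groups and classes follow the phase labels and textbook classes. Replicate numbers come from the descriptions and differ from the titles in 14 libraries. The members, lists and tests were chosen with earlier results of these data known. All members are accounted for. The subsets above 1 CPM in every phase were chosen after seeing the data. Library values are given for called genes, in a comparison with over 6 calls for the 6 largest, and the list of 49 names per role the gene with the largest difference, with the other called genes beside it. Alternatives were other filters, pseudocounts, scalings, blocks and left-out libraries. Protein sequences were not used here.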

Additional observations from a re-analysis of the deposited data

Results flagged for a closer look

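In 85 groups of 4 libraries with a spread among the tested collagens, 11 held a library whose gap to its nearest neighbor, as a share of the range of the group, exceeded the 95% critical value of Dixon's test. For continuous normal values, chance passes about 1 in 20 groups, or 4.2 here. The values here are rounded to 2 decimals and cannot fall below 0, so 4.2 is only a rough guide. All 11 were on the high side. Where the other libraries tie, the share is 1.00 by construction, and where they tie at 0 only the high side is possible. The part of any single cause was not tested.

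P3 replicate 3 stood apart for COL3A1 (1.61 against 0 to 0.08 in the other libraries, share 0.950) and for COL5A1 (0.31 against 0.04 to 0.08, share 0.852), together with the LUM and DCN values given for this library above. At the bottom of the scale, a single library was above 0 for COL3A1 at P7 (replicate 1, 0.07, share 1.00), for COL5A1 at P0 (replicate 1, 0.07, share 1.00) and for COL22A1 at P0 (replicate 3, 0.08, share 1.00), where the value amounts to a few counts.

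The abundant genes stood apart by small steps. COL5A2 in P3 replicate 4 was 9.42 against 9.36 in the other 3 (share 1.00), COL6A2 in P3 replicate 2 was 10.25 against 10.11 to 10.12 (share 0.929), and COL6A1 in P15 replicate 2 was 7.94 against 7.82 to 7.83 (share 0.917). COL4A4 in P7 replicate 3 was 2.17 against 1.98 (share 1.00), COL13A1 in the same library was 5.11 against 4.85 to 4.87 (share 0.923), and COL16A1 in P15 replicate 3 was 2.61 against 2.37 to 2.39 (share 0.917).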

How the results depend on the processing

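Of 2352 refits of single collagens (22 genes, 4 comparisons), 2331 kept direction and side of the adjusted p of 0.05, 18 gained it, 3 lost it and 0 reversed. Those that changed sides were COL3A1, COL4A4, COL9A3 and COL16A1. COL3A1 at P3 against P0 passed at 0.56 to 0.59 when P3 replicate 1, 2 or 4 was left out (adjusted p 0.024 to 0.034), and at 1.42 with a pseudocount of 0.1 (adjusted p = 0.031), so it rests on P3 replicate 3, without which it was 0.05 (adjusted p = 0.64). Left-out libraries moved the number of called collagens to 2 to 3 (lower at P3), 11 to 12 and 8 to 10 (lower at P15 against P7 and P0) and 4 to 5 (higher at P15 against P7). A replicate block by either numbering changed none of the 8 counts, given here with higher before lower. They were 1 and 2 at P3, 2 and 1 at P7, 4 and 11 at P15 against P7, and 5 and 8 against P0. The deviations of same-numbered libraries from their phase means correlated at r -0.15 to 0.22 by description. Such values cannot show whether these libraries share a culture or a day. With a pseudocount of 0.1, 2 were higher at P3. With a pseudocount of 5, 0 were higher and 1 lower at P3 and 0 higher at P7. Demanding 1 CPM in all 16 libraries left 16 tested collagens and removed COL3A1, COL5A1 and COL22A1 among others. Then 1 was higher and 0 lower at P7. At P15, 1 was higher and 8 lower against P7, and 2 were higher and 6 lower against P0. With no fold threshold the counts were 9 and 7 at P3, 11 and 5 at P7, and 8 and 13 at P15 against P0. Counts for classes and for the list of 49 moved by over 1.5 times in 47 of 728 refits. At P15 against P0, COL4A4 fell under the fold threshold with quantile normalization and with a pseudocount of 5 (4 higher in both). With a pseudocount of 5, COL4A6, COL6A3 and COL9A3 did so at P15 against P7 (8 lower). With equal medians, COL18A1 was called lower against P7 (12 lower), and COL18A1 and COL4A2 against P0 (10 lower). Quantile normalization and equal medians moved the median of all genes to between -0.01 and 0.02. Depth limits statements on genes near 0, where a value rests on a few counts.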
